A study of Mus musculus with 12 samples.

Results

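The genes described here are 37 genes of the interferon response and of MHC class I antigen processing, and they comprise transcription factors, antiviral effectors, interferon-inducible GTPases, immunoproteasome subunits, peptide transporters and the class I molecules themselves. Members were the probe sets whose annotated symbol was exactly 1 of the 37 names. A probe set is a group of short oligonucleotides that reads 1 transcript or a few related ones. This gave 64 of 45137 probe sets (chip A held 58, chip B the other 6) for 35 of the 18193 genes that had a set of their own. Isg15 and Psme2 were read only by sets that carry several symbols. Mast cells were grown from mouse bone marrow, taken from femur and fibula, in RPMI with serum, antibiotics, pyruvate, glutamine and interleukin-3, the same medium for every culture, and no interferon or infection is named in the labels. The precursor group held 3 cultures of 14 to 16 days (M1, female, and M3 and M5, male), and the mature group held 3 cultures of 57 to 110 days (M2 and M4, male, and M6, female). Cells had been enriched only by growth in interleukin-3, the labels estimate a purity of around 80%, and stromal cells, monocytes and macrophages are listed there as possible contaminants. The strain and age of the mice are not given in the sources used here. RNA of every culture was hybridised to a pair of Affymetrix arrays, MOE430A (here chip A) and MOE430B (chip B), and is given as MAS5 signal on a linear scale.

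Interferons are secreted when cells sense viral nucleic acid. Type I interferons signal through the receptor chains Ifnar1 and Ifnar2 and a complex that holds Stat2 and Irf9 and binds a DNA motif called the interferon-stimulated response element, while interferon gamma signals through Ifngr1 and Ifngr2 and leads to Irf1. Their targets include proteins that block virus growth and the machinery that cuts proteins into peptides, carries the peptides into the endoplasmic reticulum and loads them on class I molecules for display to T cells. Mast cells are long-lived tissue cells with granules of histamine and proteases, and they carry class I molecules and respond to interferons.

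Promoter sequence was available for 32 of the 37 genes, as windows from 250 bases before to 50 bases after the annotated start in RefSeq (GRCm38.p6). The windows were searched on both strands, overlapping matches counted, for the core of the response element, spelled GAAA, any 2 bases (NN), GAAA. It was found in 14 of the 32 genes (43.8%), against 1079 of all 27025 genes with a window (3.99%). By role, it was found in 4 of 4 interferon-inducible GTPase genes, 6 of 11 antiviral genes, 1 of 4 transcription factor genes, 1 of 3 genes of the ISG15 system, 1 of 5 immunoproteasome genes, 0 of 2 genes of peptide transport and loading and 1 of 3 class I genes. A match is a description of letters, and its absence says only that these letters are not in this window. Windows are printed below for 6 genes whose expression is described further on, on the gene's own strand from 5′ to 3′, in lower case with each match in capitals. Ifit1 (chr19:34640639-34640938, plus strand) is an antiviral gene with matches on the other strand that begin 104 and 85 bases before the start. Irgm1 (chr11:48871371-48871670, minus strand) is a GTPase gene with overlapping matches that begin 30 and 24 bases before the start. B2m (chr2:122147437-122147736, plus strand) encodes the light chain of class I molecules and has a match that begins 139 bases before the start. H2-D1 (chr17:35262844-35263143, plus strand), a class I heavy chain gene, and Tapbp (chr17:33919228-33919527, plus strand), the gene of the loading factor tapasin, had the smallest limma p-values of the member genes and hold no match. Psmb9 (chr17:34187281-34187580, minus strand) lies head to head with the transporter gene Tap1, with annotated starts 226 bases apart, so that 275 bases of its window are also that of Tap1, and neither window holds a match.
Ifit1: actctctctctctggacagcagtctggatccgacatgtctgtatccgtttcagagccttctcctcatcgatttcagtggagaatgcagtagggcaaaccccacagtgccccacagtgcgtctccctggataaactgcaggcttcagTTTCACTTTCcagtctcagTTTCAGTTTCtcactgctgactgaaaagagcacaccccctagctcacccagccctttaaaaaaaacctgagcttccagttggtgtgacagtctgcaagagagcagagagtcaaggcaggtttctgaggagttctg
Irgm1: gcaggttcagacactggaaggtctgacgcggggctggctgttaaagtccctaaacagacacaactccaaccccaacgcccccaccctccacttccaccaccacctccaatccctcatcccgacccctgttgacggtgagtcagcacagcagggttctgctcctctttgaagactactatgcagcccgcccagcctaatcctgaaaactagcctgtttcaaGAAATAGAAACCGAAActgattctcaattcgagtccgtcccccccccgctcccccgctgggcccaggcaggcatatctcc
B2m: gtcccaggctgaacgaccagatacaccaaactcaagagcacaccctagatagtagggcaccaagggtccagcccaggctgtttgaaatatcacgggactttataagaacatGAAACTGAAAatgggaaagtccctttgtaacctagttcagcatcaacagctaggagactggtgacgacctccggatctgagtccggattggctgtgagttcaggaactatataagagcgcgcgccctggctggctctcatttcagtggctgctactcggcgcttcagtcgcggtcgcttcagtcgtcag
H2-D1: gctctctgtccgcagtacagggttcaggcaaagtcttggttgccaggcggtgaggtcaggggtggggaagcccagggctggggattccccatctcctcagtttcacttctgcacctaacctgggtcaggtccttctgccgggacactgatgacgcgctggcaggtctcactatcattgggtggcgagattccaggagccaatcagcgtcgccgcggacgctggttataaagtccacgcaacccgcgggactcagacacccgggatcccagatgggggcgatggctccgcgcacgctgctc
Tapbp: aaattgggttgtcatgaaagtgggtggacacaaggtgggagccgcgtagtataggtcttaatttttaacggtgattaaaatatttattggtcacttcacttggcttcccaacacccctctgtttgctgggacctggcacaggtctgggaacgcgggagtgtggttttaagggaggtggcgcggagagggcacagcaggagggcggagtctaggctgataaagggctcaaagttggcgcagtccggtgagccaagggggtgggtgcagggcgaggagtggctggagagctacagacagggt
Psmb9: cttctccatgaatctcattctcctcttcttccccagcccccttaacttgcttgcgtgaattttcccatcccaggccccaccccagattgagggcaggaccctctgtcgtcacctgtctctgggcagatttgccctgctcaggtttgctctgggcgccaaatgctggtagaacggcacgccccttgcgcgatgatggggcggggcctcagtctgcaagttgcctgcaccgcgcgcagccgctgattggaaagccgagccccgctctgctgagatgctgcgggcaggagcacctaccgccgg

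**Figure D1:**
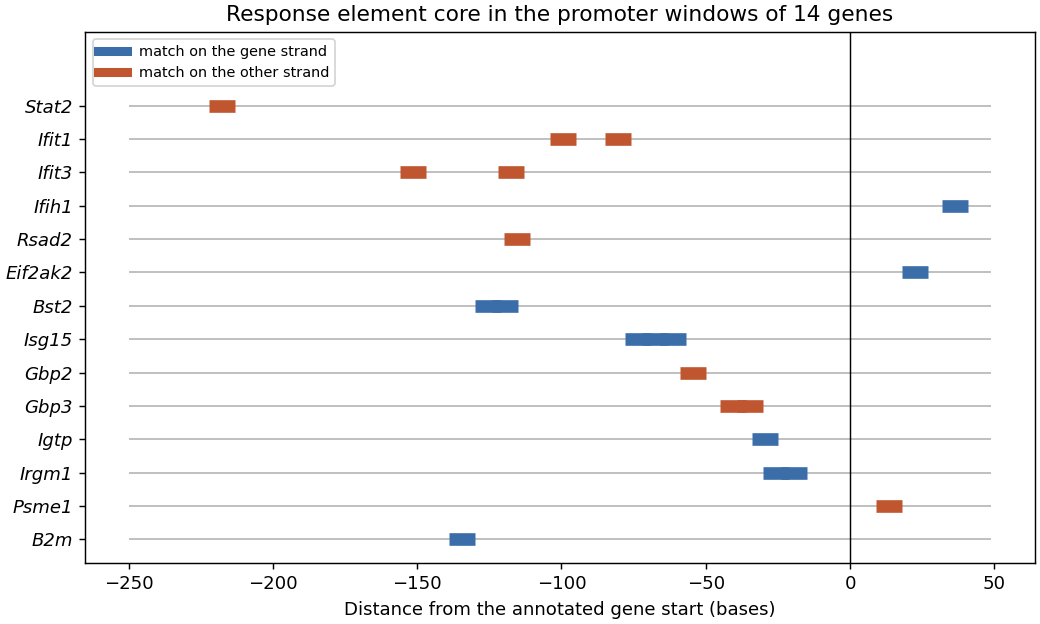
Position of each match to the response element core (coloured block, blue on the gene's strand and orange on the other) in the promoter windows (grey lines) of the 14 genes that hold one, as distance from the annotated start in bases. In 11 of the 14 genes every match lies before the start, and Ifih1, Eif2ak2 and Psme1 have theirs 32, 18 and 9 bases after it.

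The comparison asked whether the interferon and antigen-processing genes differed between precursor and mature mast cells. None passed the test. In their tested sets, the class I heavy chain genes H2-D1 and H2-K1 had lower mean signal in the mature cultures, and tapasin had higher mean signal. Of the 35 genes, 12 were too dim to be tested on chip A (1 of them, Ifi35, was tested on chip B). Of 32 member sets tested on chip A, 0 were called by limma at an adjusted p under 0.05, where 0.527% of all 11576 sets were called (0.441% lower and 0.0864% higher in the mature cultures). On chip B it was 0 of 5 member sets, where 0.0926% of 11880 were called. The smallest adjusted p of any member set was 0.314 (limma), for a set of H2-D1. At an unadjusted p under 0.05 there were 4 of 32 member sets on chip A, or 12.5%, against 6.59% of all sets, and 0 of 5 on chip B, against 6.42%. Of these 4 sets, 3 belonged to H2-D1 and H2-K1, whose sets can read each other's RNA, so they are not separate observations. With 1 set per gene, the brightest on chip A, 12 of the 23 tested genes were higher and 11 lower in the mature cultures. Their median log2 difference (mature minus precursor) was 0.057, and that of all tested chip A sets was 0.018; with quantile normalization the members' median was -0.050. The precision was limited: the standard error of a gene's difference was 0.22 to 0.65 on the log2 scale, and the 95% interval lay within 1 log2 unit of 0 for 12 of the 23 genes. The labels say only that the cultures were separate, so p-values measure the spread between cultures. In RNA from a mixed culture, fewer cells of a type and less RNA per cell cannot be told apart.

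**Figure D2:**
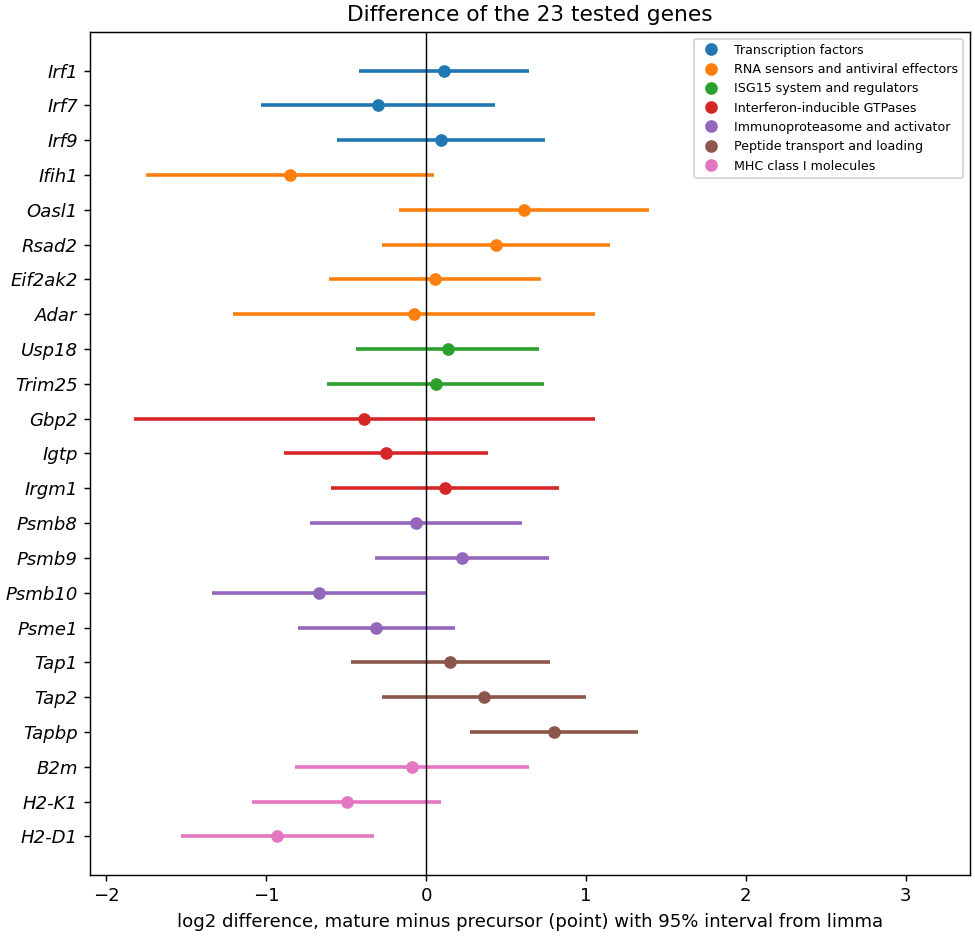
Log2 difference in signal, mature minus precursor (point), with its 95% interval from limma (line) for the 23 tested genes, 1 probe set per gene, coloured by role. Only the intervals of Tapbp (0.28 to 1.33) and H2-D1 (-1.54 to -0.32) exclude 0, and neither gene passed after adjustment.

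The 3 tested transcription factors of the response overlapped between the stages. Irf1, the factor induced by interferon gamma, had a signal of 4191 in M1, 3462 in M3 and 4140.5 in M5, the precursors, against 3984 in M2, 3722 in M4 and 5115 in M6, the mature cultures, the order kept below. The groups overlapped, with the highest value in M6. Its log2 difference was 0.11 (95% interval -0.42 to 0.64, adjusted p = 0.966, limma). Irf7, which amplifies the type I interferon response, read 1019.7 in M1, 776 in M3 and 828 in M5 against 632 in M2, 563 in M4 and 984 in M6. M6 lay among the precursors and M2 and M4 below them, and the difference was -0.30 ± 0.33 (log2, SE; adjusted p = 0.924, limma). Irf9, the DNA-binding partner of Stat2, read 1444 in M1, 1977 in M3 and 1060.5 in M5 against 1320.2 in M2, 1464 in M4 and 1894 in M6, with both the lowest and the highest value among the precursors and a difference of 0.091 ± 0.30 (adjusted p = 0.98, limma). Stat2 itself was not tested, since its brighter set exceeded the median of the chip (582) in only 1 of 6 cultures and ranged from 382 to 604.

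Most antiviral effectors were dim in both stages. Of 14 sensors and effectors with a set, 9 did not pass the filter, which kept sets above the chip's median in at least 3 of 6 arrays and passed 51.2% of all chip A sets and 52.8% of all chip B sets. Ifit2, a protein that binds viral RNA, ranged from 29.4 to 90.6, and Mx2, a dynamin-like GTPase with antiviral action, from 53.1 to 84.6, so that both lay below the 30th percentile of the chip (247) in all 6 cultures. The set of Ifit1 (269 to 578), which binds viral RNA that lacks the host cap, never exceeded the median, nor did those of Ifit3 (179 to 477), a partner of Ifit1, Mx1 (82.3 to 400.04), which blocks influenza virus, and Oasl2 (27.8 to 432), of the oligoadenylate synthetase family. Oas2, which makes the activator of RNase L, exceeded the median in 2 cultures (408 to 944). The same held for Isg20, an exonuclease that acts on RNA (165 to 659). Bst2, tetherin, which holds budding virus at the cell surface, exceeded it in 1 (156 to 614). A low MAS5 signal does not show that a transcript was absent, and no detection calls were used. Markers of plasmacytoid dendritic cells and lymphoid cells, which can be sources of interferon or of its targets, were dim as well: 5 of 6 with a set were not tested, and their summed signal was 2882 to 3104 in precursor cultures but 2961 to 4478 in mature ones.

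**Figure D3:**
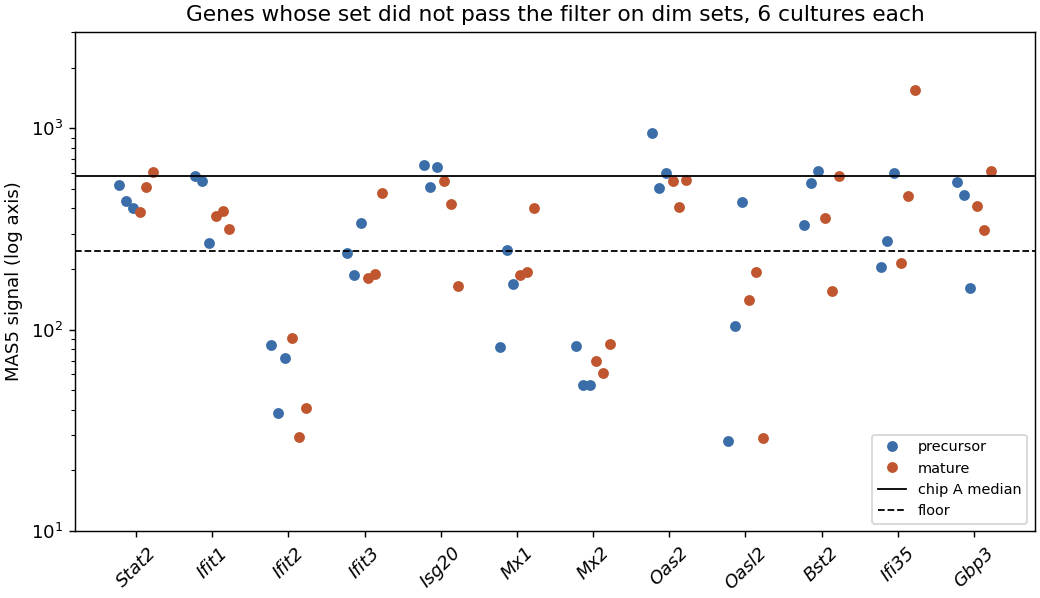
MAS5 signal (log axis) in each of the 6 cultures for the 12 genes whose set did not pass the filter on dim sets, precursor in blue and mature in orange, with the floor (247) and the median (582) of chip A as lines. All 6 points lie below the floor for Ifit2 and Mx2, and no gene has more than 2 points above the median.

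The 5 sensors and effectors that were tested had wide intervals and overlapping groups. Ifih1, the sensor of long double-stranded RNA also called MDA5, had a signal of 942 in M1, 648 in M3 and 1016 in M5 in the precursors and 301 in M2, 683 in M4 and 514 in M6 in the mature cultures. M1 and M5 lay above every mature culture and M3 just below M4, and the difference was -0.85 (95% interval -1.75 to 0.050, adjusted p = 0.758, limma). Oasl1, another member of the oligoadenylate synthetase family, read 448 in M1, 882 in M3 and 566 in M5 against 917 in M2, 778 in M4 and 1120.1 in M6. Only M3 of the precursors reached the mature values, and the difference was 0.61 (95% interval -0.17 to 1.39, adjusted p = 0.808, limma). Rsad2, viperin, which makes a chain-terminating nucleotide, read 780.2 in M1, 922 in M3 and 697 in M5 against 1464 in M2, 1132 in M4 and 749.7 in M6 in its brightest set, with M6 inside the precursor range and a difference of 0.44 ± 0.32 (adjusted p = 0.868, limma). The next brightest set of Rsad2 was not tested and gave another order, with M6 highest (1007) and M2 lowest (273). The kinase gene Eif2ak2, whose product PKR stops translation on double-stranded RNA, differed by 0.057 ± 0.30, with every culture between 675 and 927. Adar, which edits adenosine in double-stranded RNA, was read by a chip A set at 620.1 in M1, 838 in M3 and 568 in M5 against 304 in M2, 605 in M4 and 1375 in M6, a wide spread among the mature cultures. A chip B set of Adar read 7948 in M1, 10275 in M3 and 9372 in M5 against 8848 in M2, 8433 in M4 and 10498 in M6, a difference of 0.011 (95% interval -0.44 to 0.47, adjusted p = 0.994, limma), and this interval is among the narrowest of the sets described here.

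In the ISG15 system, a ubiquitin-like protein is joined to other proteins. Its tested sets also overlapped between the stages, while the untested set of Isg15 did not. Usp18, which removes ISG15 and dampens receptor signalling, read 1965 in M1, 1274 in M3 and 1569 in M5 against 1865 in M2, 1519 in M4 and 1835 in M6, a difference of 0.13 ± 0.26 (adjusted p = 0.961, limma). Trim25, a ligase needed for RIG-I signalling, read 10357 in M1, 6222 in M3 and 6633 in M5 against 5402 in M2, 8431 in M4 and 10634 in M6 in its brighter set, with M1 and M6 highest and M2 lowest. The difference was 0.060 ± 0.31 (adjusted p = 0.985, limma). Isg15 shares its only set with a second symbol, Gm9706, and this set was not tested. Its precursor values (350.3 to 392) lay above its mature values (27.3 to 307). All of these values lay under the chip's median (582), and M2 (27.3) and M6 (75.3) lay under the floor (247). Of all tested chip A sets, 12.2% did not overlap between the stages. For Ifi35, an interferon-induced leucine zipper protein, the sets disagreed in brightness. The chip A set was not tested and read 206 to 1541 over the 6 cultures, while a chip B set read 23415 in M1, 38099.8 in M3 and 34436 in M5 against 33494 in M2, 25726 in M4 and 20631 in M6, a difference of -0.26 ± 0.26 (adjusted p = 0.882, limma).

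The interferon-inducible GTPases, which take part in the defence against intracellular microbes, did not separate the stages. Gbp2, a guanylate-binding protein, had the greatest standard error of the 23 tested genes, at 218 in M1, 1380.3 in M3 and 766 in M5 in the precursors and 329 in M2, 355 in M4 and 1002 in M6 in the mature cultures. M3 and M6 were highest and M1 lowest, below the floor, and the 95% interval of the difference ran from -1.83 to 1.06. Igtp, also called Irgm3, read 1691 in M1, 2535 in M3 and 2501 in M5 against 2475 in M2, 1439 in M4 and 1782 in M6, a difference of -0.25 ± 0.29 (adjusted p = 0.928, limma). Irgm1, with response element cores close to its start, read 1063 in M1, 980.0 in M3 and 1321 in M5 against 989 in M2, 945 in M4 and 1896 in M6. M6 was highest and the other 5 cultures lay between 945 and 1321, so the difference was 0.12 ± 0.32 (adjusted p = 0.973, limma). Gbp3 was not tested (161 to 610).

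In the immunoproteasome, the interferon-inducible form of the protease that makes peptides for class I molecules, 3 of 4 tested genes were lower and 1 was higher in the mature cultures, none past the test. Psmb10, the catalytic subunit that replaces Psmb7, read 1309.7 in M1, 1673 in M3 and 2649.8 in M5 in the precursors and 1011 in M2, 1064 in M4 and 1346 in M6 in the mature cultures. M6 overlapped M1 and the other mature values lay below all precursors, and the difference was -0.67 (95% interval -1.34 to 0.0053, adjusted p = 0.748, limma). It was -0.39 without M5. Psme1, a subunit of the PA28 activator that opens the proteasome, read 4669 in M1, 4861 in M3 and 4324 in M5 against 3973 in M2, 3539 in M4 and 3657 in M6, and the groups did not overlap. Its difference was small, -0.31 ± 0.22 (adjusted p = 0.867, limma). The other activator subunit, Psme2, was read by a set that also carries the symbol Psme2b, at 3844 in M1, 3985 in M3 and 5240.3 in M5 against 3529 in M2, 2672 in M4 and 1713 in M6. These groups did not overlap either, and the difference was -0.77 ± 0.30 (adjusted p = 0.626, limma). Psmb8, the catalytic subunit that replaces Psmb5, read 3520.5 in M1, 5992 in M3 and 6337 in M5 against 6494 in M2, 4096 in M4 and 4395 in M6 on chip A, with the highest value in a mature culture and the lowest in a precursor culture. Its difference of -0.064 ± 0.30 (adjusted p = 0.984, limma) turned to 0.17 with the spike-control split described further on as a block, and ranged from -0.33 to 0.090 with 1 culture left out. Psmb9, the subunit that replaces Psmb6, was nearly even among the precursors, 2238 in M1, 2350.3 in M3 and 2269 in M5, and read 3365 in M2, 2483 in M4 and 2267 in M6 in the mature cultures, a difference of 0.22 ± 0.25 (adjusted p = 0.924, limma) that was 0.054 without M2. The constitutive counterparts differed by -0.32 ± 0.24 for Psmb5, -0.57 ± 0.29 for Psmb6 and -0.34 ± 0.27 for Psmb7 on chip A, also without passing (adjusted p = 0.871, 0.785 and 0.88, limma). Of 16 measured genes of the constitutive proteasome and its other activators, 0 passed, 5 were higher and 11 lower, with differences from -0.95 for Psmb1 to 0.24 for Psme3.

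All 3 genes of peptide transport and loading had higher mean signal in the mature cultures in their brightest sets. The difference of Tap1 turned to -0.016 on the log2 scale with array quality weights and to -0.0021 without M6. Tapasin had the greatest difference among the higher member genes. Tapbp, tapasin, which bridges the transporter and the class I molecule, read 4491 in M1, 3953 in M3 and 3340.1 in M5 in the precursors and 5838 in M2, 7371 in M4 and 7295 in M6 in the mature cultures. Every mature culture was above every precursor culture. Its difference was 0.80 ± 0.24 (log2, SE; 95% interval 0.28 to 1.33, n = 3 per group), with an unadjusted limma p of 0.00647 and an adjusted p of 0.324. A second, dim set of Tapbp was not tested, and its groups overlapped. It read 247 in M1, 44.4 in M3 and 526 in M5 against 105 in M2, 269 in M4 and 49.5 in M6. Its mean log2 level was lower in the mature cultures (7.99 against 8.31). On the other 2 genes, which encode the subunits of the peptide pump TAP, the groups overlapped in the brightest set. A dimmer set of Tap1 did not overlap but was not tested. It lay below the floor in all 3 precursors and read 430 in M2, 396 in M4 and 824 in M6. Another dim set of Tap1, also not tested, overlapped (107 to 322 in the precursors, 81.5 to 620 in the mature cultures). A further set lay below the floor in every culture. The brightest set of Tap1 read 2286 in M1, 2978 in M3 and 2142 in M5 against 3049.7 in M2, 1951 in M4 and 3361 in M6. Its difference was 0.15 ± 0.28 (adjusted p = 0.959, limma). Tap2 read 3295 in M1, 4113 in M3 and 2448 in M5 against 4205 in M2, 3143 in M4 and 5337 in M6, with M6 highest and M5 lowest, a difference of 0.36 ± 0.29 (adjusted p = 0.88, limma). The latter was 0.17 without M5, 0.18 without M6, 0.54 without M3 and 0.56 without M4. Other genes of class I loading did not pass either: of 6 tested, 2 were higher and 4 lower, from -0.63 for Nlrc5, the transactivator of class I genes, to 0.17 for Canx, the chaperone calnexin.

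All 3 class I molecule genes had lower mean signal in the mature cultures, but B2m turned to 0.071 with the spike-control split described below as a block and to as much as 0.16 with 1 culture left out. The tested sets of both heavy chain genes were lower under every scaling tried. H2-D1, a heavy chain that presents peptides to CD8 T cells, read 28731 in M1, 38787 in M3 and 45883 in M5 in the precursors and 25418 in M2, 20658 in M4 and 14085 in M6 in the mature cultures in its brightest set. All 3 mature cultures lay below all 3 precursors. Its difference was -0.93 ± 0.27 (95% interval -1.54 to -0.32, n = 3 per group), with an unadjusted limma p of 0.00632 and an adjusted p of 0.321. The next brightest set of H2-D1 read 15389 in M1, 20607 in M3 and 22258 in M5 against 13018 in M2, 10456 in M4 and 9324 in M6, again without overlap, a difference of -0.83 ± 0.24 (adjusted p = 0.314, limma). Another set did not overlap either (-0.64 ± 0.30, adjusted p = 0.748, limma). In the dimmest tested set the groups overlapped at a difference of -0.21 ± 0.38.

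H2-K1, the other classical heavy chain on these arrays, gave lower mature means in all 4 tested sets, and 2 of the 4 did not overlap. The brightest set read 20460.5 in M1, 32273 in M3 and 37722 in M5 against 24553 in M2, 17660.1 in M4 and 20473 in M6. M1 lay among the mature cultures and only M3 and M5 stood above them, and the difference was -0.50 (95% interval -1.09 to 0.094, adjusted p = 0.8, limma). It was -0.31 without M5 or with the spike-control split as a block, and -0.75 without M1. The next brightest set read 11092 in M1, 18622 in M3 and 18509.9 in M5 against 9966 in M2, 9177 in M4 and 6276 in M6, without overlap and with a difference of -0.91 ± 0.28 (adjusted p = 0.375, limma). These heavy chain genes are near-identical in part, and most of their sets carry the suffix that Affymetrix gives to sets with probes shared among transcripts, so the values of H2-D1 and H2-K1 may mix both genes. A set that carries both symbols read 1649 in M1, 1642 in M3 and 2469 in M5 against 1744 in M2, 1028 in M4 and 1741 in M6, overlapping, with a difference of -0.37 ± 0.30 (adjusted p = 0.885, limma). B2m, beta-2 microglobulin, the light chain that every class I molecule needs, overlapped in its brightest set, at 20435 in M1, 46657 in M3 and 37837 in M5 against 29846 in M2, 23312 in M4 and 43213 in M6. The difference was -0.088 (95% interval -0.82 to 0.64, adjusted p = 0.981, limma), and a dimmer set gave -0.34 ± 0.29. Over the chip A member sets, 7 of 32 did not overlap between the stages, or 21.9% against 12.2% of all chip A sets, 6 lower (6.06% of all sets) and 1 higher (6.14%), and 5 of the 6 lower sets were those of H2-D1 and H2-K1. Counted by gene, 3 of 23 (13%) did not overlap, Tapbp above and Psme1 and H2-D1 below. Of 5 member sets on chip B, 0 were without overlap, against 12% of all chip B sets.

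**Figure D4:**
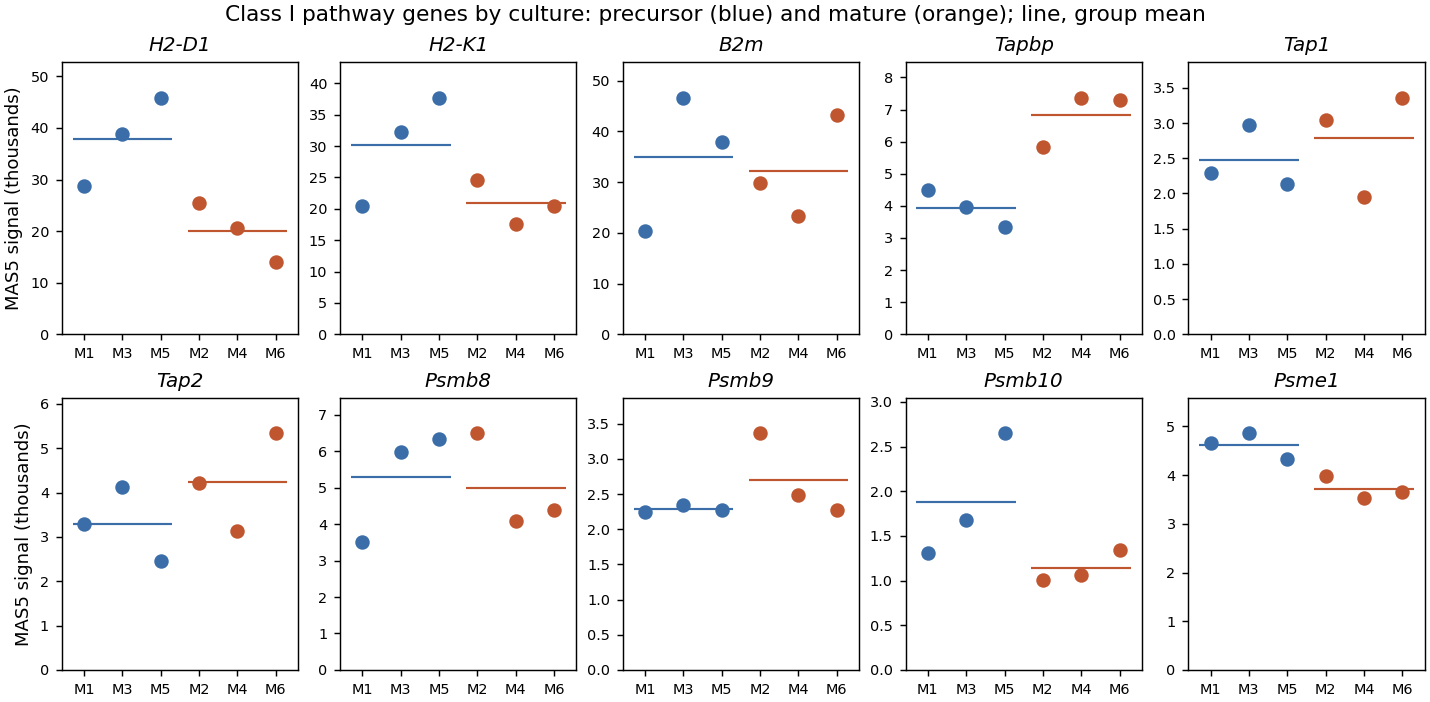
MAS5 signal, on linear axes from 0, of class I pathway genes in each culture (points; M1, M3 and M5 precursor in blue, M2, M4 and M6 mature in orange), with the mean of each group as a line. The mature points of Tapbp all lie above the precursor points and those of H2-D1 all lie below, while the other genes overlap except Psme1.

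Within the precursors the class I molecules were uneven in the same cultures. Relative to each gene's mean over the 6 cultures, the median log2 level of B2m, H2-K1 and H2-D1 was -0.27 in M1, 0.53 in M3 and 0.62 in M5, and -0.081 in M2, -0.46 in M4 and -0.26 in M6. So by this median M3 and M5 were high, and M1 lay within the range of the mature cultures. For H2-D1 alone, M1 (28731) lay above every mature culture, of which M2 (25418) was highest. Markers of other cells moved with the stages. Of 12 tested macrophage and monocyte markers, 7 fell in the mature cultures (Lyz1, Lyz2, Csf1r, Adgre1, Cd68, Mpeg1 and Clec7a), 0 rose and all 12 had lower means. Mpeg1 entered the test only through the precursors, where it was high, so its fall was partly fixed by the filter and is no support. The summed signal of all 16 with a set was 128705 in M1, 127692 in M3 and 181089 in M5 but 10377 to 18653 in mature cultures, where Mpeg1, C1qa and Marco lay below the floor in every culture. Of 8 tested markers of MHC class II and dendritic cells, H2-Aa and H2-Eb1 fell. Their list summed to 13794 in M1, 31293 in M3 and 27301 in M5, and to 6416 to 7588 in the mature cultures. M1 was thus the lowest precursor for class II, as for class I, while M1 and M3 were alike in the macrophage sum. M1 was also the only female precursor and the only precursor with a low spike-control ratio (described below), and these cannot be told apart. Stromal markers were dim throughout, with 8 of 9 not tested and a sum of 2796 to 4449. Mast cell markers were bright in all cultures (summed signal 469782 to 839243), and of 10 tested only Hdc, which makes histamine, passed and fell. Macrophages and dendritic cells carry class I molecules too, and the part of these cells in the lower H2-D1 and H2-K1 signal was not tested.

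Another division of the arrays ran across the stages. The arrays hold probe sets for bacterial RNAs spiked in before labelling, for their 5′ and 3′ ends. The log2 ratio of 5′ to 3′ signal was -3.93 in M1, -3.58 in M4 and -3.81 in M6 on chip A, and -2.75 in M3, -2.97 in M5 and -2.41 in M2, and the same cultures were low and high on chip B. Both female cultures (M1 and M6) had a low ratio, and every culture with a high ratio was male. Sex and this division thus differ by M4 alone, and the 2 cannot be told apart here. The labels do not name a batch, so this split is known only from the spikes. Psmb8 followed it on both chips: its chip A signal was 3520.5 in M1, 4096 in M4 and 4395 in M6, against 5992 in M3, 6337 in M5 and 6494 in M2. All 3 cultures with a high spike ratio were above the other 3, by 0.71 ± 0.23 (log2, SE) with stage in the model, and by 0.72 ± 0.32 in the chip B set. The dimmer set of B2m (0.64 ± 0.23), the brightest set of H2-K1 (0.57 ± 0.22), Igtp (0.60 ± 0.25) and the brighter chip B set of Ifi35 (0.58 ± 0.20) were likewise higher in all 3 cultures with a high ratio, and Trim25 was lower in them (-0.75 ± 0.23). The brightest set of H2-D1 (0.56 ± 0.23) and the next brightest of H2-K1 (0.57 ± 0.25) had ratio differences of like size, with some overlap between the ratio groups. The ratio's term reached an unadjusted p under 0.05 in 8 of 32 member sets on chip A, or 25%, against 6.9% of all sets, and in 2 of 5 on chip B, against 6.84%. Trim25 and H2-K1 each gave more than 1 of the chip A sets, and H2-D1 and H2-K1 can read each other's RNA, so these are not separate observations. With 1 set per gene it was 5 of 23 (21.7%). After adjustment by limma the ratio's term passed in 0 of 11576 chip A sets and 0 of 11880 chip B sets, and the smallest adjusted p of a member set was 0.618. Sets whose 2 ratio groups did not overlap made up 5 of 32 on chip A (15.6%, against 15.4% of all sets) and 3 of 5 on chip B (against 13.2%). In a model with this split as a block, the stage difference of H2-D1 was -0.74 (adjusted p = 0.487, limma) and that of Tapbp 0.70 (adjusted p = 0.533). In this model 0 member sets passed, where 0.337% of chip A sets and 0.0505% of chip B sets did. At an unadjusted p under 0.05 it was 5 of 32 member sets on chip A (6.11% of all sets) and 0 of 5 on chip B (6.56%). They were sets of Ifih1, Tapbp, H2-D1 and H2-K1, with more than 1 set of H2-D1, so these too are not separate observations. On each side of the split 1 of the stages had a single culture (M1 on the low side, M2 on the high side), so the values within a side carry no spread and no test. Within the low-ratio cultures H2-D1 differed by -0.75 and within the high-ratio cultures by -0.73. For Tapbp the same within-group values were 0.71 and 0.68. The brightest set of H2-K1 differed by -0.11 and -0.51, and that of B2m by 0.64 and -0.49.

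**Figure D5:**
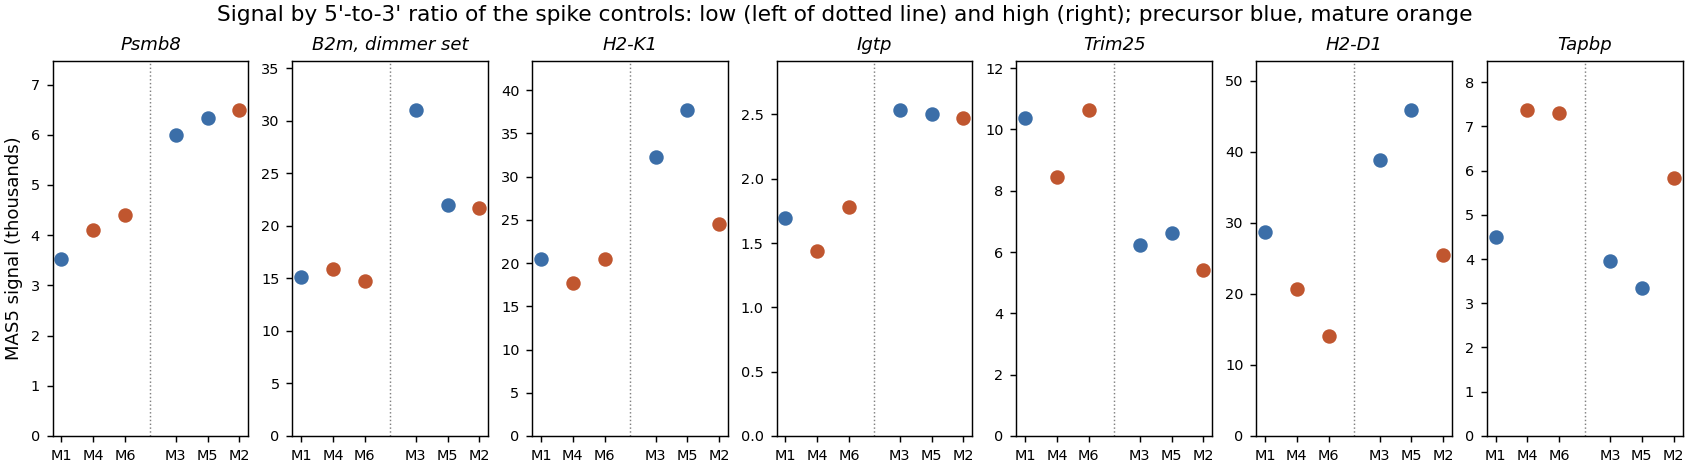
MAS5 signal (linear axes from 0) of 7 probe sets, with the cultures of low spike-control ratio (M1, M4, M6) left of the dotted line and those of high ratio (M3, M5, M2) right of it, precursor in blue and mature in orange. Psmb8, the dimmer B2m set, H2-K1 and Igtp are higher on the right in every culture, Trim25 is higher on the left, and H2-D1 and Tapbp divide by stage within each side.

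Upstream of these genes the interferon receptors were measured in both stages, with 0 of 12 tested receptor, kinase and feedback genes past the test, 5 higher and 7 lower (1, Ifngr2, had an unadjusted p under 0.05). Ifnar1 differed by -0.032 ± 0.30 and Ifnar2 by -0.39 ± 0.29 on chip A, the chains that bind type I interferons. Of the interferon gamma receptor, the ligand-binding chain Ifngr1 read 2827 in M1, 2261 in M3 and 2545 in M5 against 1026 in M2, 3719 in M4 and 1168 in M6, with M4 highest and M2 and M6 lowest, a difference of -0.62 ± 0.43 (adjusted p = 0.863, limma). The signalling chain Ifngr2 read 1054 in M1, 1198 in M3 and 1224 in M5 against 876 in M2, 755 in M4 and 115 in M6 in its brighter set, where M6 lay below the floor, and the groups did not overlap. Its difference was -1.08 ± 0.45 (adjusted p = 0.69, limma), the lowest of the list by the brightest set per gene. A dimmer set of Ifngr2 read 968 in M1, 848 in M3 and 968 in M5 in the precursors and lay below the floor in all 3 mature cultures (83.0, 77.5 and 146), at least 3.75-fold lower against the floor. It entered the test only through the precursors, where it was high, so no p is given for it. Socs3, a feedback inhibitor of cytokine signalling, had the highest difference, 0.92 ± 0.65, with a range of 2508 to 25486 among the mature cultures. Of 9 tested genes of nucleic acid sensing 0 passed (1, Sting1, had an unadjusted p under 0.05), 3 were higher and 6 lower, from -1.04 for Sting1, the adaptor of DNA sensing, to 0.13 for the kinase gene Tbk1. Of 20 further interferon-stimulated genes 0 passed, 8 were higher and 12 lower, from -0.76 for Pml to 0.55 for Daxx, which both belong to nuclear bodies.

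M6 stood apart in its hybridisation controls, whose signal was 2.81-fold (chip A) and 1.94-fold (chip B) the mean of the other cultures, and its labels give the lowest RNA concentration, 1.0 µg/µl against 1.5 or 2.0. M6 was the highest culture for 7 of the 23 tested genes (30.4%), against 29% of all tested chip A sets. Without M6 the difference of H2-D1 was -0.70 and that of Tapbp 0.75 (adjusted p = 0.605 and 0.569, limma). The interaction of stage and sex passed in 0 of 11576 chip A sets and 0 of 11880 chip B sets (limma), with 1 female culture per stage. At an unadjusted p under 0.05 it was found in 5 of 32 member sets on chip A (7.56% of all sets) and 0 of 5 on chip B (5.72%), and its smallest adjusted p among member sets was 0.495. Both sets of Gbp2 were among them. So were sets of H2-D1 and H2-K1, which may read each other's RNA, so these are not separate observations. Median signal per array was 534 to 692 for chip A and 816 to 913 for chip B, correlations between log2 values of cultures of 1 group were 0.864 to 0.913 and 0.762 to 0.821, and no 2 arrays held identical values. Precision is limited by the number of arrays.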

How the data were processed

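Total RNA of 6 cultures was read on 12 arrays. The deposited values are linear intensity per probe set, made with MAS5 per the submitters' processing notes (version and settings not given in the sources used here), and each array had been scaled to a trimmed mean of about 1500. The authors' other deposited files (unit: other) are instrument records, used only for the fluidics station. Each chip was handled alone. Intensities under the chip's 30th percentile (247 on chip A, 359 on chip B) were raised to it and log2 was taken. Sets above the chip's median (582 or 864) on at least 3 of 6 arrays were tested, control sets aside, with limma 3.58.1 in R 4.3.3 (lmFit, eBayes with an intensity trend, no covariate, two-sided, Benjamini-Hochberg per chip). Differences are mature minus precursor; the SE and 95% interval are those of the fit. A rank test of 3 against 3 was not used.

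Gene names came from the platform annotation: 20380 sets on chip A had 1 symbol, 691 several and 1555 none, and 14661, 245 and 7605 on chip B. Every member is named or counted, with its brightest chip A set for summaries. Of other pathway genes, the interferon receptor chains, Psmb5, Psmb6 and Psmb7 and each list's highest and lowest difference are named, and the second set of Ifngr2 was named with its values known. The members and lists were chosen with earlier results of these data known. Alternatives were other scalings, floors and filters, no trend, array weights, other sets per gene, each culture left out, and sex, station or the spike-control split as a block. No set test was run over the members.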

Additional observations from a re-analysis of the deposited data

How the results depend on the processing

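In all 19 alternatives run, 0 member sets passed the test, and the lowest adjusted p of any was 0.0932 (limma), for H2-D1 with sex as a block. The members' median difference ranged from -0.16 without M6 to 0.091 with the filter at the 60th percentile. Of 37 tested sets 21 kept their sign throughout, those of H2-D1 except its dimmest, H2-K1 and Tapbp among them, and 16 changed it, each without passing. The cause was not tested. With 75th percentile scaling the chip B set of Adar turned to -0.025. With a higher floor, the 50th percentile, its chip A set turned to 0.23. With array quality weights Tap1 turned to -0.016, Irgm1 to -0.038, Trim25 to -0.021, Irf9 to -0.059 and the chip B set of Adar to -0.013. With the spike-control split as a block Trim25 turned to -0.19, Psmb8 to 0.17, B2m to 0.071 and a dimmer chip B set of Adar to -0.021. Leaving out 1 culture gave ranges across 0 of -0.024 to 0.20 for Irf1, -0.13 to 0.32 for Irf9, -0.055 to 0.17 for Eif2ak2, -0.020 to 0.29 for Usp18, -0.0021 to 0.39 for Tap1 and -0.20 to 0.30 for Irgm1. For B2m the range was -0.43 to 0.16, for Psmb8 -0.33 to 0.090, for Adar -0.64 to 0.45 (chip A) and -0.090 to 0.095 (chip B), and for the dimmest H2-D1 set -0.63 to 0.079. For the sets of Trim25 it was -0.16 to 0.33 and -0.34 to 0.18, and for those of Gbp2 -1.07 to 0.17 and -0.70 to 0.18.

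Over all genes, 61 sets were called on chip A and 11 on chip B. With no filter it was 1 and 0, where 22626 and 22511 sets were tested, and with the split as a block 39 and 6. Without 1 culture it was 21 (without M5) to 59 on chip A, with 25 without M2, and 3 (without M6) to 11 on chip B, with 5 without M2 or M4 and 6 without M5. On chip B it was 4 with no floor, 17 with the floor at the 50th percentile or sex as a block, 6 with the 60th percentile filter, 3 with no trend and 7 with array weights. An unadjusted p under 0.05 was found for 763 sets of either chip. No paired analysis was possible because the groups share no replicate numbers. Dim signal limits the 12 genes not tested on chip A, except Ifi35, which was tested on chip B.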
